A study of Mus musculus with 12 samples.

Results

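The nuclear genes for mitochondrial ribosomal proteins were followed in mouse bone-marrow-derived macrophages (BMDMs), which are primary cells grown out of marrow for 7 days in L929-conditioned medium. All genes of the deposited count table whose symbol begins with Mrpl or Mrps and a digit were taken, leaving out pseudogene symbols and genes with fewer than 60 counts summed over the 12 libraries. This gave 76 genes, and all 76 were among the 12261 genes tested in the table. The marrow came from C57BL/6N mice without Alpk1 (KO) or from wild-type mice (WT), and cells received 100 µM ADP-heptose (ADP-Hep) or PBS for 4 h. The 4 groups were KO with ADP-Hep, KO with PBS, WT with ADP-Hep and WT with PBS, with 3 libraries each. Alpk1 encodes the kinase that recognises ADP-Hep, a sugar nucleotide of Gram-negative bacteria. The labels do not say whether replicates came from separate animals or cultures, so p-values here speak only of how far these libraries differ, a spread that may be technical.

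Mitochondria keep their own ribosome, the mitoribosome, which makes the small set of proteins still encoded by mitochondrial DNA, all of them core parts of the respiratory chain and ATP synthase. Its rRNAs are transcribed from mitochondrial DNA, whereas all its proteins are made from nuclear genes in the cytosol and imported. Part of these proteins descend from the bacterial ancestor, and the others joined later and are found only in mitochondria. The large subunit (mostly Mrpl genes) holds the peptidyl transferase centre and the exit tunnel, and the small subunit (mostly Mrps genes) reads the mRNA. Of the 76 genes, 49 encode large-subunit proteins and 26 encode small-subunit proteins. Mrps30 and Mrps18a are counted with the large subunit despite their names, since their proteins sit there. Mrps36 belongs to neither, because its protein is a component of the 2-oxoglutarate dehydrogenase complex.

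The libraries held 16110654 to 31333973 counts, of which 71.3 to 85.2% lay in the rows used. Below those rows the KO columns no longer lined up with the gene identifiers, so 19206 rows were not used. Macrophage markers were high in every library, with all 8 of 8 tested and a summed level of 24830 to 29610 CPM (CPM stands for read counts relative to library size, scaled by TMM), among them Adgre1, Csf1r and Lyz2. The defining T cell marker Cd3e had 0 counts, and the neutrophil marker Ly6g had 17 counts over all libraries. Of 8 T and NK cell markers 1 was tested, Cd4 with 474 counts, and of 6 B cell markers 1, Cd79b with 2693 counts. Other neutrophil markers were present, with 7 of 10 tested and a summed level of 80.2 to 160 CPM, among them S100a9 (8591 counts over all libraries), Ngp (6615) and S100a8 (5391). Alpk1 mRNA was at 19.2 to 22.4 CPM in KO libraries with ADP-Hep, 20.3 to 22.3 CPM in KO libraries with PBS, 52.3 to 55.3 CPM in WT libraries with ADP-Hep and 25.9 to 32.1 CPM in WT libraries with PBS. Since no label says which exons were removed, these levels do not check the genotype by their size. In bulk RNA, fewer cells of a type and less RNA per cell cannot be told apart.

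Taken as a sum, mitoribosomal protein mRNA was a little more abundant after ADP-Hep in both genotypes. The 76 genes together held 1610 ± 12.8 CPM in KO cells with ADP-Hep and 1509 ± 19.4 CPM in KO cells with PBS (SD, n = 3 each). In WT cells they held 1771 ± 22.7 CPM with ADP-Hep and 1561 ± 31.5 CPM with PBS (SD, n = 3 each). The 3 libraries with ADP-Hep lay above the 3 libraries with PBS in each genotype. Scaled by the counts in the rows used without TMM, the sums were 1651.7 to 1690.7 CPM in KO cells with ADP-Hep and 1483.5 to 1558 with PBS. In WT cells they were then 1647.8 to 1662.8 CPM with ADP-Hep and 1559.1 to 1615.6 with PBS. Which genotype had the larger rise thus depends on the scaling. The median log2 fold change over the 76 genes was 0.11 for the KO response and 0.14 for the WT response, against 0.0052 and -0.0058 over all 12261 genes tested. Most single changes were therefore small, and 63 genes had an estimate above 0 in KO cells and 62 in WT cells. Each change below is a log2 fold change ± SE, tested by quasi-likelihood in edgeR, and a gene was called where the p adjusted by Benjamini-Hochberg over all genes tested was under 0.05.

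**Figure D1:**
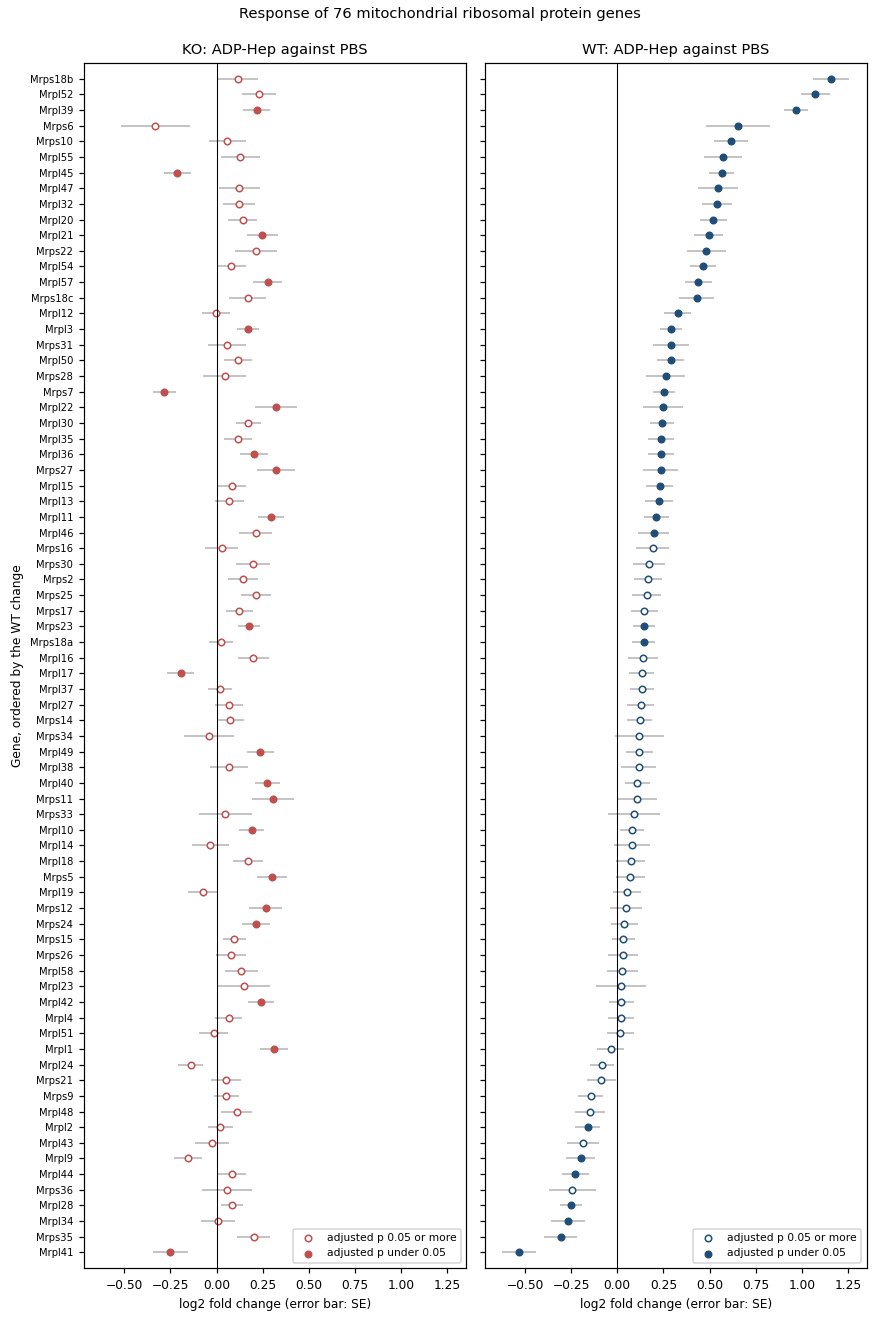
Log2 fold change of each of the 76 genes with ADP-Hep against PBS in KO cells (left) and WT cells (right), with genes ordered by the WT change and bars showing the SE. Filled points mark the 22 genes called in KO cells and the 39 called in WT cells, and increases reached 0.32 at most in KO cells and 1.16 in WT cells.

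Per length of exon, the genes covered a wide range of levels. The mean over the 12 libraries ran from 1.03 CPM per kb for Mrpl23 to 30.8 CPM per kb for Mrps21, with a median of 7.98. The 5 highest were Mrps21 (30.8 CPM per kb), Mrpl28 (29.6), Mrpl34 (29.6), Mrpl54 (24.6) and Mrps15 (23.1), and the 5 lowest were Mrpl47 (2.26), Mrpl48 (2.22), Mrps10 (1.81), Mrps35 (1.52) and Mrpl23 (1.03). The libraries of Mrps21, Mrpl28 and Mrpl34 overlapped in level, so the order among these 3 is not resolved. The median was 9.23 CPM per kb over the large-subunit genes and 4.88 over the small-subunit genes. Length here is the union of all annotated exons, which long rarely used isoforms inflate (8631 bases for Mrps35 and 607 for Mrpl34), so a low value per kb may partly reflect the annotation. Near the threshold of 60 summed counts no gene was close, since the lowest inside was Mrps6 with 1068 counts, followed by Mrpl23 with 1076 and Mrps34 with 1124. The one outside by counts was Mrpl53, a protein near the stalk base, with 4 counts in all.

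**Figure D2:**
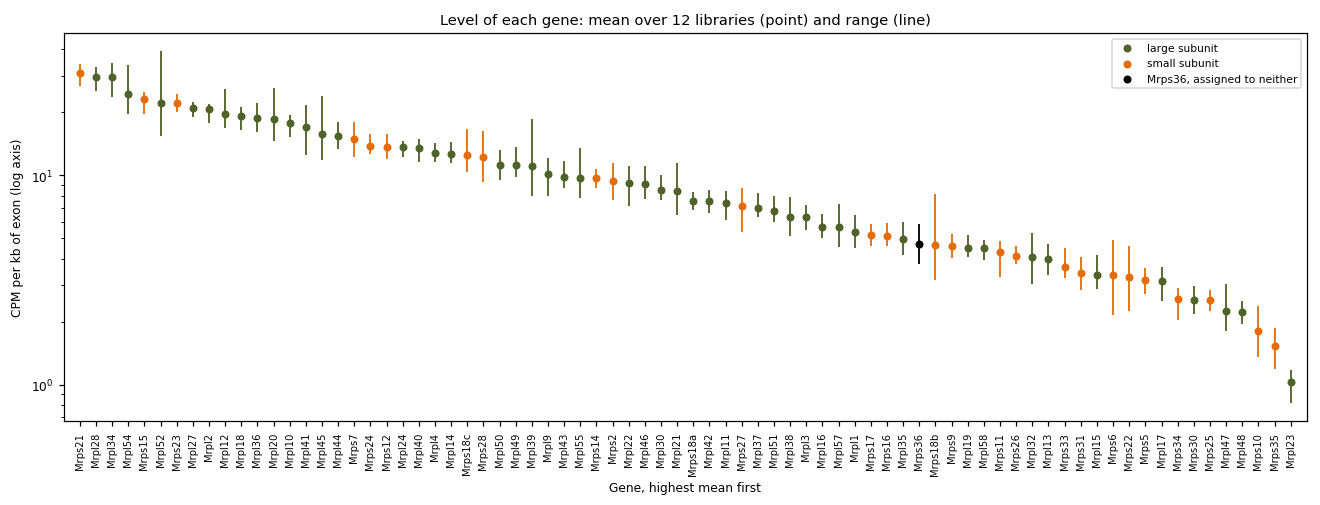
CPM per kb of exon on a log axis for the 76 genes, as the mean over 12 libraries (point) and the range from lowest to highest library (line), coloured by subunit. Levels run from 1.03 for Mrpl23 to 30.8 for Mrps21, and Mrpl52, Mrps18b and Mrpl39 have long ranges.

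ADP-Hep changed a minority of these genes in cells without its receptor kinase, by small amounts. In KO cells 18 of the 76 genes were higher (13.7% of all genes tested were) and 4 were lower (15.3% of all), and 0 of either reached 1.5-fold (2.06% of all genes were higher and 3.22% lower by as much). Called in either direction were 28.9% of the 76 genes, the same share as of all genes tested. The 3 libraries with ADP-Hep lay wholly above those with PBS for 26 genes (21.1% of all genes tested) and wholly below for 6 (20.9% of all). The higher genes were spread over both subunits, with 12 of 49 in the large and 6 of 26 in the small subunit.

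The largest increases in KO cells were Mrpl22 (0.32 ± 0.11, adjusted p = 0.0335), which lines the exit tunnel, and Mrps27 (0.32 ± 0.10, adjusted p = 0.0182), a pentatricopeptide-repeat protein of the small subunit. They were followed by Mrpl1 (0.31 ± 0.08), part of the ribosome's L1 stalk, and by Mrps11 (0.31 ± 0.11), Mrps5 (0.30 ± 0.08) and Mrpl11 (0.30 ± 0.07), of which Mrpl11 forms the stalk base where elongation factors bind. Mrpl57 (0.28 ± 0.08), Mrpl40 (0.28 ± 0.07), Mrps12 (0.27 ± 0.09), a protein of the decoding centre, and Mrpl21 (0.25 ± 0.09) complete the 10 largest. Mrpl1 was at 25.9, 25.7 and 27.7 CPM in KO libraries with ADP-Hep, against 22.6, 21.2 and 20.1 CPM in those with PBS. Its groups did not overlap, and in WT cells the same gene was at 22.8, 23.6 and 19.3 CPM with ADP-Hep and 23.7, 21.9 and 22.7 CPM with PBS, which overlap.

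The 4 genes that fell in KO cells were Mrps7, Mrpl41, Mrpl45 and Mrpl17. Mrps7, a protein of the small subunit's head, was at 26.7, 27.0 and 25.5 CPM in KO libraries with ADP-Hep and 32.96, 31.3 and 32.1 CPM in those with PBS (-0.28 ± 0.06, adjusted p = 0.00104). Its groups were clearly apart. Mrpl41 (-0.25 ± 0.09, adjusted p = 0.046), Mrpl45 (-0.21 ± 0.07, adjusted p = 0.0303) and Mrpl17 (-0.19 ± 0.07, adjusted p = 0.0487) lay nearer to the threshold and lost the call in 14, 7 and 18 of 24 other settings, whereas Mrps7 lost it in 1, the test against a 1.5-fold change.

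The count of 18 higher genes in KO cells depended on single libraries and on the tool. It was 7 without KO PBS replicate 3, 9 without KO PBS replicate 2, 9 without KO ADP-Hep replicate 1, 11 without KO ADP-Hep replicate 3, 10 without the KO ADP-Hep library that has no replicate number, and 7 with DESeq2's Wald test. Of the 4 lower genes, 1 or 2 kept the call when any single KO library, or WT ADP-Hep replicate 1 or 2, was left out. Of the 10 largest increases, Mrpl1, Mrps5, Mrpl11 and Mrpl40 kept the call under every other setting apart from the test against a 1.5-fold change, and the other 6 lost it when single KO libraries were left out. With library totals as the only scaling the split was 25 higher and 1 lower. That scaling moves all genes by about the same amount, and the share of all genes called under it is not given here. Without that share, the split is not read as a result about these genes.

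In WT cells the changes included several large increases. Of the 76 genes, 32 were higher with ADP-Hep (31.9% of all genes tested) and 7 were lower (31.6% of all). In either direction 51.3% of the 76 were called, against 63.5% of all genes tested. Only 5 were higher by 1.5-fold or more (12.4% of all genes tested) and 0 were lower by as much (14.2% of all), and 2, Mrps18b and Mrpl52, reached 2-fold (6.81% of all). Libraries with ADP-Hep lay wholly above those with PBS for 40 genes (32.7% of all) and wholly below for 7 (33.3% of all). Higher were 22 of 49 large-subunit and 10 of 26 small-subunit genes, and likewise 19 of 45 with a bacterial counterpart and 13 of 30 found only in mitochondria. The increases were thus not limited to either subunit or either origin.

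Library totals as the only scaling moved the median of all genes in the WT response to -0.12 and that of the 76 genes to 0.026. The split was then 19 higher and 13 lower. A change of scaling moves all genes by about the same amount, so it cannot test the distance between the 2 medians. Without WT ADP-Hep replicate 2 the lower genes numbered 3.

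Mrps18b, which encodes one of the 3 mammalian relatives of bacterial protein S18, had the largest change. It was at 15.6, 16.1 and 17.0 CPM in WT libraries with ADP-Hep, against 7.42, 7.55 and 6.84 CPM in those with PBS (1.16 ± 0.10, adjusted p = 1.28e-10). The KO libraries were at 7.27, 8.09 and 8.51 CPM with ADP-Hep and 8.28, 7.07 and 6.61 CPM with PBS (0.11 ± 0.11, adjusted p = 0.487). The 3 WT libraries with ADP-Hep stood above the other 9, which lay together. Its 2 relatives differed in size of change. Mrps18c was at 16.5 ± 1.46 CPM in WT cells with ADP-Hep and 12.2 ± 1.46 CPM with PBS (SD, n = 3 each), a change of 0.43 ± 0.09 (adjusted p = 0.000295). Mrps18a, whose protein sits in the large subunit, changed by 0.14 ± 0.06 (adjusted p = 0.047). Mrps18b (ENSMUSG00000024436; chromosome 17, 35910379 to 35916389, minus strand, mm10) shares 638 exon bases, 30.5% of its exonic length, with the antisense gene Gm16279, and since the strand setting of the counting is not given, reads of the pair cannot be told apart.

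Mrpl52, a mitochondria-specific protein of the large subunit (ENSMUSG00000010406; chromosome 14, 54426909 to 54429756, plus strand), was at 37.7, 42.4 and 43.5 CPM in WT libraries with ADP-Hep and 18.2, 18.1 and 21.5 CPM in those with PBS (1.07 ± 0.08, adjusted p = 1.18e-11). In KO libraries it was at 19.1, 19.8 and 23.1 CPM with ADP-Hep and 17.1, 17.7 and 18.2 CPM with PBS (0.23 ± 0.09, adjusted p = 0.0622). The KO groups did not overlap either, but their distance was a fraction of that in WT cells. Mrpl39, another mitochondria-specific protein of the large subunit (ENSMUSG00000022889; chromosome 16, 84717576 to 84735742, minus strand), was at 42.2, 45.4 and 47.3 CPM in WT libraries with ADP-Hep and 22.7, 23.6 and 22.5 CPM in those with PBS (0.97 ± 0.06, adjusted p = 9.57e-13). In KO libraries it was at 22.3, 25.1 and 24.0 CPM with ADP-Hep and 20.5, 20.4 and 20.1 CPM with PBS (0.22 ± 0.07, adjusted p = 0.0245). Mrpl39 is the only one of these 3 that was called in both genotypes.

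The next increases in WT cells were Mrps6, Mrps10, Mrpl55, Mrpl45, Mrpl47, Mrpl32 and Mrpl20. Mrps6, a platform protein of the small subunit, has the lowest counts of the 76 genes and the widest error. It was at 6.64, 5.75 and 7.51 CPM in WT libraries with ADP-Hep and 3.97, 4.13 and 4.29 CPM in those with PBS (0.65 ± 0.17, adjusted p = 0.00237), whereas the KO libraries, at 4.20, 3.30 and 5.03 CPM with ADP-Hep and 6.41, 3.66 and 6.37 CPM with PBS, overlapped. Some Mrps6 exons overlap exons of Slc5a3 and Gm49711 on the same strand. Mrps10, of the small subunit's head, rose to 19.1 ± 0.188 CPM in WT cells with ADP-Hep, against 12.6 ± 1.96 CPM in WT cells with PBS (SD, n = 3 each; 0.62 ± 0.09). Mrpl32, whose import form is trimmed by the m-AAA protease before assembly, was at 25.96 ± 0.37 CPM with ADP-Hep and 17.7 ± 2.48 CPM with PBS in WT cells (SD, n = 3 each; 0.54 ± 0.08). Mrpl55 (0.57 ± 0.10), Mrpl47 (0.55 ± 0.11), at the rim of the exit tunnel, and Mrpl20 (0.52 ± 0.07) changed by similar amounts, and none of these genes other than Mrpl45 was called in KO cells.

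Mrpl45, which anchors the mitoribosome to the inner membrane at the tunnel exit (ENSMUSG00000018882; chromosome 11, 97315716 to 97329920, plus strand), rose in WT cells and fell in KO cells. It was at 33.6, 34.4 and 30.6 CPM in KO libraries with ADP-Hep and 38.6, 35.7 and 40.2 CPM in those with PBS. In WT libraries it was at 52.7, 52.3 and 62.3 CPM with ADP-Hep and 38.2, 35.3 and 38.2 CPM with PBS (0.57 ± 0.07, adjusted p = 7.38e-08). The 2 groups with PBS lay together, and the groups with ADP-Hep lay on opposite sides of them. Mrps7 also moved in opposite directions, although its PBS groups did not overlap (32.96, 31.3 and 32.1 CPM in KO libraries and 29.7, 29.5 and 30.5 CPM in WT libraries). It was at 37.2, 34.6 and 35.1 CPM in WT libraries with ADP-Hep and 29.7, 29.5 and 30.5 CPM in those with PBS (0.25 ± 0.06, adjusted p = 0.000548), with the fall in KO cells given above. Parts of Mrps7 exons overlap Gga3 and Mif4gd on the other strand, and in WT cells Gga3 fell by 0.28 and Mif4gd rose by 0.24 on the log2 scale.

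The 7 genes that fell in WT cells all did so by less than 1.5-fold. Mrpl41, a mitochondria-specific protein of the large subunit (ENSMUSG00000036850; chromosome 2, 24974117 to 24975098, minus strand), was at 14.8, 14.7 and 14.0 CPM in KO libraries with ADP-Hep and 16.6, 18.6 and 16.4 CPM in those with PBS. In WT libraries it was at 11.9, 12.4 and 11.1 CPM with ADP-Hep and 14.7, 19.3 and 17.5 CPM with PBS (-0.53 ± 0.09, adjusted p = 2.1e-05). It is the one gene of the 76 that was called lower in both genotypes. Mrps35, of the small subunit's head, was at 11.3, 11.2 and 10.2 CPM in WT libraries with ADP-Hep and 13.2, 13.7 and 13.9 CPM in those with PBS (-0.31 ± 0.09, adjusted p = 0.00423). The others were Mrpl34 (-0.27 ± 0.09), Mrpl28 (-0.25 ± 0.06), Mrpl44 (-0.23 ± 0.07), which has a ribonuclease III fold, Mrpl9 (-0.20 ± 0.08) and Mrpl2 (-0.16 ± 0.07), a protein near the peptidyl transferase centre. Mrpl34, Mrpl44, Mrpl9 and Mrpl2 lost the call without WT ADP-Hep replicate 2. Without WT ADP-Hep replicate 1 so did Mrpl34, Mrpl9 and Mrpl2, and leaving out single WT PBS libraries ended it for Mrpl34 (replicate 2), Mrpl44 and Mrpl9 (replicate 3) and Mrpl2 (replicates 1 and 2).

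**Figure D3:**
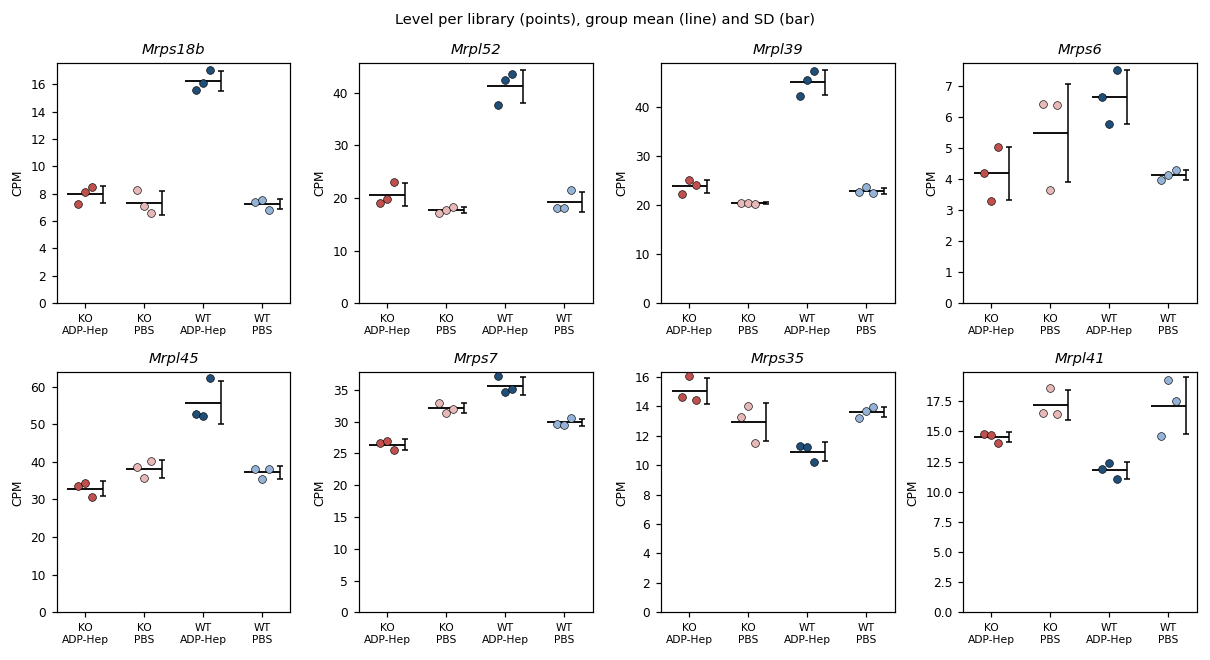
CPM in each library for 8 genes, with the KO groups left of the WT groups; lines are group means and bars are SD (n = 3). Mrps18b, Mrpl52 and Mrpl39 are high in the 3 WT libraries with ADP-Hep, Mrpl45 and Mrps7 move in opposite directions in the 2 genotypes, and Mrpl41 is lowest in WT cells with ADP-Hep.

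Members with set places in the ribosome are given by site, without a test of each site. At the stalk and its base, Mrpl12, the stalk protein itself, rose in WT cells (0.33 ± 0.07, adjusted p = 0.000369), as did Mrpl11 (0.21 ± 0.07) and the mitochondria-specific Mrpl54 (0.46 ± 0.07), while Mrpl10, which ties the stalk to the body, was at 31.9 ± 1.18 CPM with ADP-Hep and 30.4 ± 1.57 CPM with PBS (SD, n = 3 each; 0.08 ± 0.06, adjusted p = 0.29). Around the exit tunnel, Mrpl45, Mrpl47 and Mrpl22 (0.25 ± 0.11, adjusted p = 0.0497) rose in WT cells, whereas Mrpl23 (0.02 ± 0.14, adjusted p = 0.9) and Mrpl24 (-0.08 ± 0.06, adjusted p = 0.272) were not called. Mrpl58, a peptidyl-tRNA hydrolase built into the large subunit, was not called in WT cells (0.03 ± 0.08, adjusted p = 0.802) or KO cells (0.13 ± 0.09, adjusted p = 0.273). Mrpl3 (0.29 ± 0.06) and Mrps22 (0.48 ± 0.10), genes whose human counterparts cause mitochondrial disease when mutated, rose in WT cells. Mrps2 was not called in WT cells (0.17 ± 0.07, adjusted p = 0.0563), nor was Mrps36 (-0.24 ± 0.13, adjusted p = 0.0973).

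The 2 genotypes shared part of their calls. Of the 18 genes higher in KO cells, 9 (50%) were also higher in WT cells, as were 42.1% of all 76 genes. The 9 are 28.1% of the 32 higher in WT cells, where 23.7% of all 76 were higher in KO cells. The sharing was thus not far from these base shares. Among these 9 were Mrpl3, Mrpl11, Mrpl21, Mrpl22, Mrpl39, Mrpl57 and Mrps27. Another 9 were called higher in KO cells and not called in WT cells, 21 the reverse, and 27 were called in neither. Across the 76 genes the KO and WT responses, which share no library, had Pearson r = 0.155 and Spearman rho = 0.191, given as a description since the genes share libraries and depth.

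The difference between the genotypes was tested directly, as the KO response minus the WT response. For 14 of the 76 genes the KO response was lower (24.6% of all genes tested) and for 4 it was higher (24.9% of all), so that 23.7% of the 76 were called in either direction against 49.5% of all genes. Negative differences were led by Mrps18b (-1.05 ± 0.15, adjusted p = 2.56e-06), Mrps6 (-0.98 ± 0.26, adjusted p = 0.0027), Mrpl52 (-0.84 ± 0.12, adjusted p = 2.68e-06), Mrpl45 (-0.78 ± 0.10, adjusted p = 4.39e-07), Mrpl39 (-0.75 ± 0.10, adjusted p = 4.42e-07), Mrps10 (-0.56 ± 0.14) and Mrps7 (-0.54 ± 0.09). Positive differences were called for Mrps35 (0.51 ± 0.13, adjusted p = 0.00167), Mrpl1 (0.35 ± 0.11, adjusted p = 0.00872), Mrpl28 (0.34 ± 0.08, adjusted p = 0.00156) and Mrpl44 (0.31 ± 0.11, adjusted p = 0.02), which lost the call in 7 of 23 other settings, without WT PBS replicate 3, WT ADP-Hep replicate 2, KO PBS replicate 1 or KO ADP-Hep replicate 1 among them. Of the 9 genes called higher in both genotypes, only Mrpl39 had a called difference. Of the 9 called higher only among KO libraries, only Mrpl1 did, so for the other 8 a difference from WT cells was not shown. With library totals as the only scaling, which moved the median of all genes to 0.16 (0.12 for the 76), the split was 21 higher and 7 lower.

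No gene of the 76 was called between the genotypes at rest. In KO against WT cells under PBS, edgeR called 0 of the 76 genes higher (5.57% of all genes tested) and 0 lower (5.82% of all), and DESeq2's Wald test and limma-voom called 0 in either direction as well, whereas 1 gene was lower with DESeq2 size factors and 2 with no low-count filter or with all rows as deposited. At an unadjusted p under 0.05, 0 were higher (12.4% of all genes tested) and 5 lower (12.5% of all). The estimates leaned down, with 23 of 76 above 0 and a median of -0.061 against 0.0013 over all genes. The KO libraries with PBS are also the baseline of the KO response. This lean and the mostly positive estimates of that response are thus not separate observations. KO libraries lay wholly below WT libraries for 11 genes (14.5% of all genes tested) and wholly above for 3 (13.2% of all). The nearest to a call were Mrps2, at 23.6 ± 1.96 CPM in KO cells and 27.9 ± 2.26 CPM in WT cells (SD, n = 3 each; -0.24 ± 0.08, adjusted p = 0.0522), and Mrps27, at 12.02 ± 1.18 CPM in KO cells and 14.9 ± 1.18 CPM in WT cells (SD, n = 3 each; -0.31 ± 0.10, adjusted p = 0.0523). Mrps27 was picked after its values were seen. Without KO PBS replicate 2 the counts were 1 higher and 3 lower, and up to 2 lower genes were called when WT PBS replicate 2, WT ADP-Hep replicate 3 or KO ADP-Hep replicate 3 was left out.

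Under ADP-Hep, where KO and WT cells differed widely over the whole genome, 10 of the 76 genes were higher in KO cells (32.8% of all genes tested) and 28 were lower (32% of all). KO libraries lay wholly below WT libraries for 29 genes (33.7% of all) and wholly above for 8 (34.9% of all). The lower genes were led by Mrps18b (-1.03 ± 0.10, adjusted p = 7.99e-10), Mrpl52 (-0.99 ± 0.08, adjusted p = 4.61e-11), Mrpl39 (-0.92 ± 0.06, adjusted p = 2.02e-12) and Mrpl45 (-0.75 ± 0.07, adjusted p = 5.61e-10). The higher ones were led by Mrps35 (0.44 ± 0.09, adjusted p = 0.000101) and Mrpl41 (0.29 ± 0.09, adjusted p = 0.0092). This comparison uses the same WT libraries with ADP-Hep as the WT response. The median over the 76 genes was -0.088, against 0.014 over all genes. With library totals as the only scaling it was 0.066 against 0.17, with 24 higher and 14 lower. Such a change of scaling moves all genes by about the same amount, so it cannot test the distance between these medians. Without KO ADP-Hep replicate 1 the higher genes numbered 6.

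Upstream sequence is shown for 3 members that stand for different patterns, namely Mrpl52, which rose in WT cells, Mrpl45, which moved in opposite directions in the 2 genotypes, and Mrpl41, which fell in both. Each is the 250 bases before the annotated start, 5′ to 3′ on the gene's own strand, from the RefSeq promoter table of GRCm38.p6. Capitals mark a match to the motif CCGGAAG of ETS factors, to which the respiratory-gene regulator GABP belongs, or to the motif of NRF1 (GCGCA, any base, GCGC), a regulator of nuclear genes for mitochondria.
Mrpl52, chr14:54426659-54426908, plus strand: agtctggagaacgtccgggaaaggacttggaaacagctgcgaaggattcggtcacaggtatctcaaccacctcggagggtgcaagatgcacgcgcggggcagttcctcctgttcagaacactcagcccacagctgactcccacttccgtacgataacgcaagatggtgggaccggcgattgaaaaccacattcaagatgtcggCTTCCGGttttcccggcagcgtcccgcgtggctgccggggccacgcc
Mrpl45, chr11:97315466-97315715, plus strand: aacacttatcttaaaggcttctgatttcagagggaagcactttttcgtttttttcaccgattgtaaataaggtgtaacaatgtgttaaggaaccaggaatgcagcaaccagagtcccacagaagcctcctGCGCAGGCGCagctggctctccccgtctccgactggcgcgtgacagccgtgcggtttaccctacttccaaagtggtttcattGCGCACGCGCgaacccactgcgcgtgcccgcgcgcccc
Mrpl41, chr2:24975099-24975348, minus strand: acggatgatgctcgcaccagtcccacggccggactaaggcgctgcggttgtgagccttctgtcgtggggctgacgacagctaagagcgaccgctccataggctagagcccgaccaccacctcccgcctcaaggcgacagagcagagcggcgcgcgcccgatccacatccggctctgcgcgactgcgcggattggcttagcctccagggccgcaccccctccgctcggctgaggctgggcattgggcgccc

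Counted from the start, the ETS match of Mrpl52 begins at -47, on the reverse strand, and the NRF1 matches of Mrpl45 begin at -120 and -38. The Mrpl41 window holds neither motif. Promoters could be matched for 67 of the 76 genes, and both strands of the 250 bases were searched. NRF1's motif lay in 14.9% of the 67, against 3.74% of all 32851 promoters in the table, and the ETS motif in 23.9% against 6.91%. AANATGGC of YY1 was in 10.4% against 3.91%, the E-box CACGTG in 7.46% against 6.02% and TGACGTCA, the cyclic AMP response element, in 2.99% against 1.55%. The kappaB motif was in 5.97% against 7.25%, and GAAA repeated after any 2 bases, a core of interferon-stimulated response elements, in 4.48% against 2.98%. Among the 28 matched genes that were higher in WT cells, the kappaB motif was in 0, NRF1's in 21.4% and the ETS motif in 25%. The 67 are a single promoter per gene, all from genes tested here, whereas the 32851 were reduced in neither way. The sets are thus unlike, and the gaps in share are not read as a trait of these genes. A match is a run of letters and not evidence of binding.

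The 76 genes lie on 17 chromosomes, and chromosome 11 holds 11 of them, more than any other. For 19 of the 76 (25%), another protein-coding gene starts within 1000 bases and points away in the opposite direction, against 11.8% of 11413 tested protein-coding genes. Pairs whose starts overlap by more than 100 bases were not counted, Mrps11 and Mrpl46 among them. Members and such neighbours did not always move the same way. Of the 18 neighbours tested in WT cells, 2 were higher (31.9% of all genes tested) and 8 lower (31.6% of all). Among the pairs with both genes called, 4 moved the same way and 4 opposite ways, too few to compare with a base share. Mrps18b starts 45 bases from Ppp1r10, a phosphatase regulator that fell by 0.67 in WT cells, whereas Mrpl32 and the proteasome gene Psma2, 75 bases apart, rose by 0.54 and 0.41 on the log2 scale. Mrpl41 and Pnpla7 both fell (-0.53 and -1.48), and Mrpl57 rose (0.44) beside a lower Ska3 (-0.55). In all, 31 members share exon bases with another gene, 27 with one on the other strand and 6 with one on the same strand, and their counts are uncertain to that extent. Mrps25, of whose exonic length 69.8% overlaps Nr2c2, and Mrps34 are the most exposed of the small-subunit genes. Mrps34 shares 63.4% with Mapk8ip3 on the other strand and 37% with Nme3 on the same strand.

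Counts for other parts of the mitochondrial translation machinery are read against the shares of all genes tested, which were 13.7% higher and 15.3% lower in KO cells and 31.9% higher and 31.6% lower in WT cells. Among 5 mitoribosomal proteins that carry other symbols, 0 were called in KO cells and 3 rose in WT cells, namely Chchd1 (0.43 ± 0.08), Gadd45gip1 (0.43 ± 0.14) and Ptcd3 (0.31 ± 0.07). Of 25 assembly and rRNA-modifying factors, 2 were higher and 0 lower in KO cells, and 9 were higher and 8 lower in WT cells, near the shares of all genes. The assembly factor Rbfa rose in KO cells (0.29 ± 0.08, adjusted p = 0.00543) and fell in WT cells (-0.62 ± 0.08, adjusted p = 1.73e-07), while Fastkd2 (0.52 ± 0.08) and Mterf3 (0.46 ± 0.08) rose in WT cells. Of 13 translation factors, 2 were higher and 1 lower in KO cells, and 4 were higher and 3 lower in WT cells. The elongation factors Gfm1 (0.35 ± 0.06) and Tufm (0.30 ± 0.07) rose in WT cells and Oxa1l (-0.53 ± 0.05), the insertase that takes up the nascent proteins, fell.

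Of 21 genes that charge mitochondrial tRNAs, 3 were higher and 1 lower in KO cells, and 5 were higher and 9 lower in WT cells, with the synthetase Vars2 (-0.71 ± 0.10) among those that fell in WT cells. Of 12 genes for transcription and replication of mitochondrial DNA, 1 was higher and 1 lower in KO cells, and 3 were higher and 3 lower in WT cells, among them the elongation factor Tefm (0.66 ± 0.11) and the helicase Twnk (-0.93 ± 0.12). Twnk exons overlap those of Mrpl43 on the other strand over 33.4% of Mrpl43's exonic length, and Mrpl43 itself was not called in WT cells (-0.19 ± 0.09, adjusted p = 0.0597).

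Of 10 regulators of nuclear genes for mitochondria, 2 were higher and 2 lower in KO cells, and 6 were higher and 1 lower in WT cells. Myc was at 3.37 ± 0.10 CPM in KO cells with ADP-Hep and 5.14 ± 0.51 CPM with PBS, and at 24.5 ± 2.32 CPM in WT cells with ADP-Hep and 6.09 ± 0.24 CPM with PBS (SD, n = 3 each). It rose in WT cells (2.00 ± 0.10, adjusted p = 1.45e-15) and fell in KO cells (-0.60 ± 0.14, adjusted p = 0.00194). The coactivator Pprc1 (1.03 ± 0.07) and the nuclear receptor Esrra (0.49 ± 0.06) rose in WT cells and Ppargc1b (-0.71 ± 0.16) fell. For 5 of the 10 the KO response was lower than the WT response, and for 1 it was higher.

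Products of mitochondrial DNA itself were not called in any comparison by edgeR, with 7 of 13 mRNAs and both rRNAs tested and 6 mRNAs listed at 0 in all libraries. Their summed mRNA level was 5266 to 8757 CPM in KO cells with ADP-Hep, 3523 to 8026 with PBS, 8220 to 8704 in WT cells with ADP-Hep and 6349 to 6875 with PBS. The WT groups thus did not overlap, and the 7 estimates in WT cells ran from 0.26 for mt-Cytb to 0.47 for mt-Nd2. The test uses 1 estimate of the spread for all 4 groups, the widely spread KO libraries included. The lack of a call therefore does not show that these mRNAs were unchanged in WT cells. The lowest KO libraries stood apart in each group, KO ADP-Hep replicate 1 at 5266 and KO PBS replicate 1 at 3523 CPM. The 2 rRNAs summed to 4334 CPM in KO PBS replicate 2 and to 10310 and 10340 CPM in the other KO PBS libraries. Leaving these mitochondrially encoded genes out before scaling, a setting added after the data were seen, left each count of called mitoribosomal protein genes within 1.5 times. The part of these libraries' low mitochondrial RNA in the counts for KO cells was not tested otherwise than by leaving the libraries out, as given above.

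Cytosolic ribosomal proteins, of which 76 were tested too, had medians nearer 0 in the 2 responses to ADP-Hep. In KO cells 1 was higher and 5 lower (median -0.061), and in WT cells 8 were higher and 3 lower (median 0.020), against medians of 0.11 and 0.14 for the mitochondrial ones. Between the genotypes under ADP-Hep, 38 of them were lower in KO cells (32% of all genes tested) and 0 higher (32.8% of all). Their median there was -0.106, against -0.088 for the mitochondrial ones. Rpl3 fell in both genotypes (-0.21 ± 0.05 in KO cells and -0.25 ± 0.05 in WT cells). Neutrophil markers, of which 7 of 10 were tested, were also at different levels. They summed to 80.2 to 99.5 CPM in KO cells with ADP-Hep and 126 to 150 CPM with PBS, and to 133 to 160 CPM in WT cells with ADP-Hep and 100 to 130 CPM with PBS. In KO cells 4 of the 7 were lower and in WT cells 3 were higher. The part of this in the mitoribosomal counts was not tested.

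**Figure D4:**
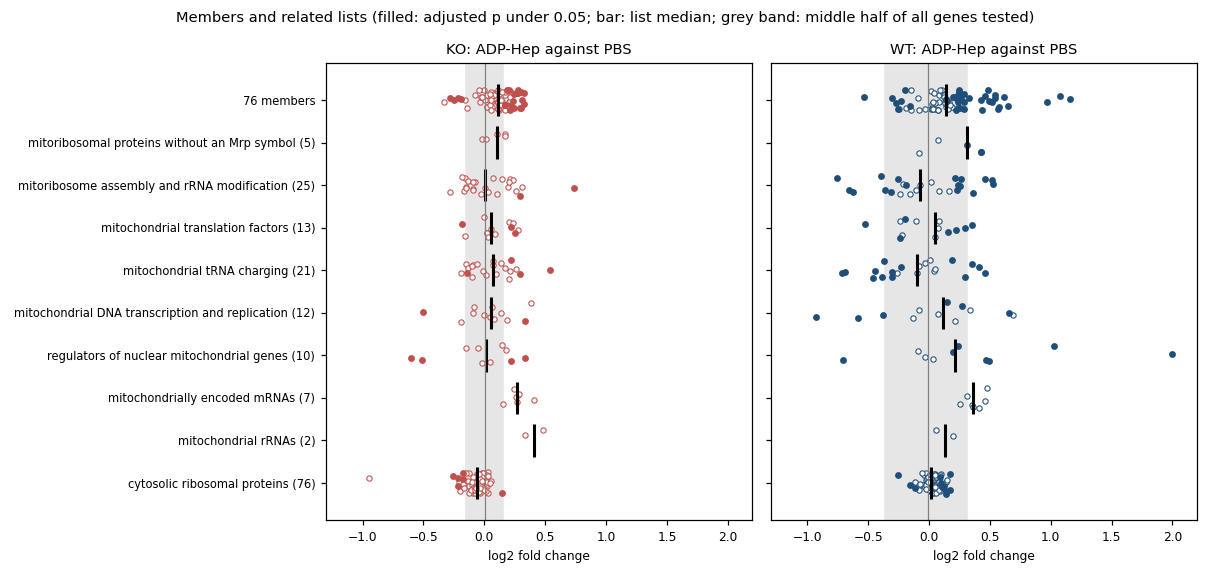
Log2 fold change with ADP-Hep against PBS in KO cells (left) and WT cells (right) for each gene (points, filled where called) of the 76 mitoribosomal protein genes and of related lists, with the number tested in brackets. Black bars are list medians, 0.11 and 0.14 for the 76 genes, and the grey band holds the middle of all genes tested.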

How the data were processed

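RNA from 12 BMDM libraries was sequenced after a stranded mRNA preparation from total RNA, per the labels' protocols. The authors deposited raw gene counts, as whole numbers, in 1 table. The submitters' processing notes name the builds mm10 and hg38 and, as tools, STAR, RSEM, featureCounts, Trim Galore, FastQC and DESeq2. Their versions, the annotation release, the strand setting and counting tool were not given in the sources used here.

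Columns were assigned by name. In the KO ADP-Hep group 1 column carried a number found in no label and has no replicate number here. Across genes, WT and KO mean log2 counts correlated at r = 0.996 in the rows used and at 0.0474 in the 19206 rows below (0.973 with the KO columns moved up 1 row), which were left out. Depth per library is given with the results. Between replicates, chi-square per degree of freedom was 1.93 to 10.1, so no pair matched within sampling noise.

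Tests ran in R 4.3.3 with edgeR 4.0.16: TMM scaling, filterByExpr and a robust quasi-likelihood fit of the 4 group means to all 12 libraries. The same steps were also run on counts simulated from the gene means and spread of that fit. The biological coefficient of variation was 4.81%. The SE is the absolute log2 change divided by the square root of F, an approximation. Exon lengths and coordinates are from GENCODE M21 on mm10. Alternatives used DESeq2 1.42.0, limma 3.58.1 and the other settings listed at the end.

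Named are, per comparison, up to 10 called members with the largest increases and decreases, members with set roles, and up to 4 called genes per related list. Overlapping and neighbouring genes were named after their values were seen. The members and lists were chosen with earlier results of these data known.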

Additional observations from a re-analysis of the deposited data

Results flagged for a closer look

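For 18 of the 76 genes the test of the difference between the KO and the WT response to ADP-Hep passed an adjusted p under 0.05, the share of all genes tested being 49.5%. The KO response was lower for Mrps18b (-1.05), Mrps6 (-0.98), Mrpl52 (-0.84), Mrpl45 (-0.78), Mrpl39 (-0.75), Mrps10 (-0.56), Mrps7 (-0.54), Mrpl55 (-0.44), Mrpl47 (-0.42), Mrpl32 (-0.42), Mrpl54 (-0.38), Mrpl20 (-0.38), Mrpl12 (-0.33) and Mrpl17 (-0.33), in log2 units. It was higher for Mrps35 (0.51), Mrpl1 (0.35), Mrpl28 (0.34) and Mrpl44 (0.31). Mrpl47 lost the call in 11 of 23 other settings, DESeq2's Wald test among them, and Mrpl44 in 7. Mrpl45 and Mrps7 are called in opposite directions in the 2 genotypes. Mrpl12 was at 28.0 ± 0.209 CPM in KO cells with ADP-Hep and 28.2 ± 2.17 CPM with PBS, and at 35.6 ± 3.65 CPM in WT cells with ADP-Hep and 27.9 ± 1.77 CPM with PBS (SD, n = 3 each).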

How the results depend on the processing

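Over 24 other settings, 193 of 238 recomputed counts of called members stayed within 1.5 times of the reported one. Of 1546 recomputed values for single named members, 1362 kept their direction and their call, 184 lost the call and 0 reversed. The cause of the shifts was not tested. Against a 1.5-fold change (glmTreat) 0 members were higher and 0 lower in the KO response, 3 and 0 in the WT response, 0 and 2 in the difference between responses, and 0 and 4 in KO against WT under ADP-Hep; that setting asks for a larger change. With library totals as the only scaling, 1 was lower in the KO response, 19 higher and 13 lower in the WT response, 21 higher and 7 lower in the difference, and 24 higher and 14 lower under ADP-Hep. That scaling moves all genes by about the same amount, and shares of all genes called under it are not given here. DESeq2's Wald test gave 7 higher and 2 lower in the KO response and 6 higher under ADP-Hep. No low-count filter, and likewise all rows as deposited, gave 2 lower in the KO response and 2 lower in KO against WT under PBS, and DESeq2 size factors gave 1 lower under PBS.

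Replicate numbers did not pair the samples, since correlations of same-numbered libraries' deviations ran from -0.148 to 0.183. With a replicate block 8 members were higher and 2 lower in the KO response, and 6 were higher in KO against WT under ADP-Hep. Leaving out 1 library at a time gave 7 to 20 higher and 1 to 4 lower in the KO response, 24 to 35 higher and 3 to 7 lower in the WT response, 3 to 5 higher and 13 to 16 lower in the difference, 0 to 1 higher and 0 to 3 lower under PBS, and 6 to 10 higher and 22 to 30 lower under ADP-Hep. Fits of only the groups compared give no value for the difference, which uses all 4. Depth limits the rarest members most, Mrps6 having 42 to 163 counts per library.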

Other observations

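Mrpl33, a large-subunit protein with a bacterial counterpart, lies in the rows where the KO columns no longer match the identifiers, so it entered no comparison. In WT libraries it was at 23.2, 19.6 and 19.3 CPM with ADP-Hep and 16.5, 14.3 and 16.2 CPM with PBS, and the groups did not overlap. In the KO columns its row held 4 to 11 counts as deposited, and the next row 188 to 422.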
